A study of Mus musculus with 4 samples.

Results

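The genes described here were *Rsrc1*, which encodes an arginine and serine rich coiled-coil protein, and 9 genes for related splicing factors: *Rsrc2*, *Srsf1*, *Srsf2*, *Srsf3*, *Srsf4*, *Srsf5*, *Srsf6*, *Srsf7* and *Tra2b*. *Rsrc1* was chosen by its measured counts, which fell strongly in MIZ-1DPOZ cells, so its values in that comparison are given as a description and carry no test. The other 9 were taken as its functional relatives, though earlier results of these data were known at the time. These 10 genes were among 41214 genes in the count table, and all 10 were among the 14554 genes tested, those with 10 or more counts in 2 or more libraries.

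SR proteins bind short sequences in exons of a pre-mRNA through RNA recognition motifs, and their tails of alternating arginine and serine, the RS domains, recruit the U1 snRNP and U2AF to the neighbouring splice sites. Kinases of the SRPK and CLK families phosphorylate these tails, which moves the proteins into the nucleus and out of nuclear speckles to sites of transcription. Several SR genes limit their own mRNA by including an exon with a premature stop codon, which sends the transcript to nonsense-mediated decay.

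RNA was sequenced from unstimulated B220+ splenocytes, enriched with magnetic beads against B220, the CD45 isoform on B cells. The MIZ-1WT group was wild type, and the MIZ-1DPOZ group came from mice with Mb1-Cre and Miz-1 floxPOZ alleles, whose B cells make a MIZ-1 protein without its POZ domain because a Cre inserted at *Cd79a* removes the floxed exons. MIZ-1 itself is a zinc finger transcription factor that partners MYC. All mice were young adults on a C57BL/6 background. Each genotype had 2 libraries, numbered as replicates in the labels and described as biological duplicates in the paper's methods. Neither the age nor the sex of each animal was given, nor whether MIZ-1WT mice carried the Cre.

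Between 43026814 and 46387209 counts fell on genes in a library. Levels are given as CPM, counts scaled to a common library total after TMM normalization, and fold changes as the log2 of MIZ-1DPOZ over MIZ-1WT. *Zbtb17*, the gene of MIZ-1, had counts from 1946 to 2087 in MIZ-1WT and from 1669 to 1774 in MIZ-1DPOZ, and counts over all exons do not show whether the POZ exons were lost. The libraries differed in more than MIZ-1: all 15 macrophage markers and all 11 cycling cell markers were higher in MIZ-1DPOZ, as were 7 of 8 marginal zone and 5 of 6 plasma cell markers, while 8 of 10 pan-B markers were lower. Macrophage markers summed to 948 to 1257 CPM in MIZ-1WT and to 3555 to 5622 CPM in MIZ-1DPOZ, and pan-B markers to 10813 to 11070 CPM and 8883 to 9308 CPM. The pan-B markers include *Cd79a*, where the Cre is inserted, which was lower at 119 CPM in MIZ-1DPOZ beside 324 CPM in MIZ-1WT. *Xist* was counted 49 and 60 times in MIZ-1WT and 38145 and 40838 times in MIZ-1DPOZ, and 4 Y-linked genes went the other way, so the sex of the animals and their genotype cannot be told apart. In such bulk samples, fewer cells of a type cannot be told apart from less RNA per cell, and the part of cell makeup in the results that follow was not tested.

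To show a feature that these 10 genes share, a coding stretch of 90 bases is printed for *Rsrc1* and for 3 SR genes. It is the stretch with the most neighbouring arginine and serine codons, read from the GENCODE transcript with the longest coding sequence (GRCm38). Arginine codons are in capitals and all other codons in lower case. The *Rsrc1* stretch covers codons 82 to 111 and spans exons 3 and 4 (chr3:66996514-67082548, plus strand, the intron included). The others are codons 127 to 156 of *Srsf2* in exon 2 (chr11:116852226-116852315, minus strand), codons 203 to 232 of *Srsf1* in exon 4 (chr11:88049466-88049555, plus strand) and codons 198 to 227 of *Srsf5* in exon 9 (chr12:80949757-80949846, plus strand).
Rsrc1: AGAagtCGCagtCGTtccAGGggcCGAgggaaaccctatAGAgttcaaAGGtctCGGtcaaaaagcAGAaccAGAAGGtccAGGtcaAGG
Srsf2: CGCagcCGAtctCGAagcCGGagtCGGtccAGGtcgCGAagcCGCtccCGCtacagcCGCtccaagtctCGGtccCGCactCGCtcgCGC
Srsf1: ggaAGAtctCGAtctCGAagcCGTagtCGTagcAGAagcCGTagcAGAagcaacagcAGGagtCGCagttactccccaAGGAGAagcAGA
Srsf5: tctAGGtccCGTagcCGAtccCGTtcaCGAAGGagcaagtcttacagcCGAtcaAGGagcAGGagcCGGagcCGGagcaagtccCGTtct

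The *Rsrc1* stretch held 13 arginine and 8 serine codons, and that of *Srsf2* 14 and 13. Over the whole coding sequence, *Rsrc1* had 11.1 arginine-serine or serine-arginine neighbours per 100 codons, the lowest value of the 10 genes, and *Srsf2* had 23.5, the highest. Both were far above the median of 0.731 over 20865 genes. *Srsf2*, *Srsf7*, *Srsf6* and *Srsf4* took the first 4 places among those genes, and *Rsrc1* was the 17th. Genes outside the 10 held some of the places above *Rsrc1*.

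*Rsrc1* (ENSMUSG00000034544) lies on the plus strand of chromosome 3 (chr3:66981390-67358396, GRCm38) and is linked to constitutive and alternative splicing. Its counts were 1443 and 1480 in the MIZ-1WT libraries and 179 and 133 in the MIZ-1DPOZ libraries. These corresponded to 33.1 and 35.2 CPM in MIZ-1WT and to 3.76 and 3.03 CPM in MIZ-1DPOZ. Both MIZ-1DPOZ libraries lay far below both MIZ-1WT libraries. The mean fell from 34.1 ± 1.51 CPM (SD, n = 2) to 3.40 ± 0.517 CPM (SD, n = 2), which left 9.94% of the MIZ-1WT level, a log2 fold change of -3.33 with a standard error of 0.12. A detectable level thus remained in the MIZ-1DPOZ libraries, and the gap of 0.31 on the log2 scale between them was small beside the difference between genotypes. Y-linked RNA also remained there, with *Ddx3y* at 14.2 CPM beside 359 CPM in MIZ-1WT and *Eif2s3y* at 10.1 beside 205. *Kdm5d* was at 8.62 beside 169 CPM and *Uty* at 5.79 beside 113 CPM. Which cells or animals the remaining *Rsrc1* counts came from was not tested.

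**Figure D1:**
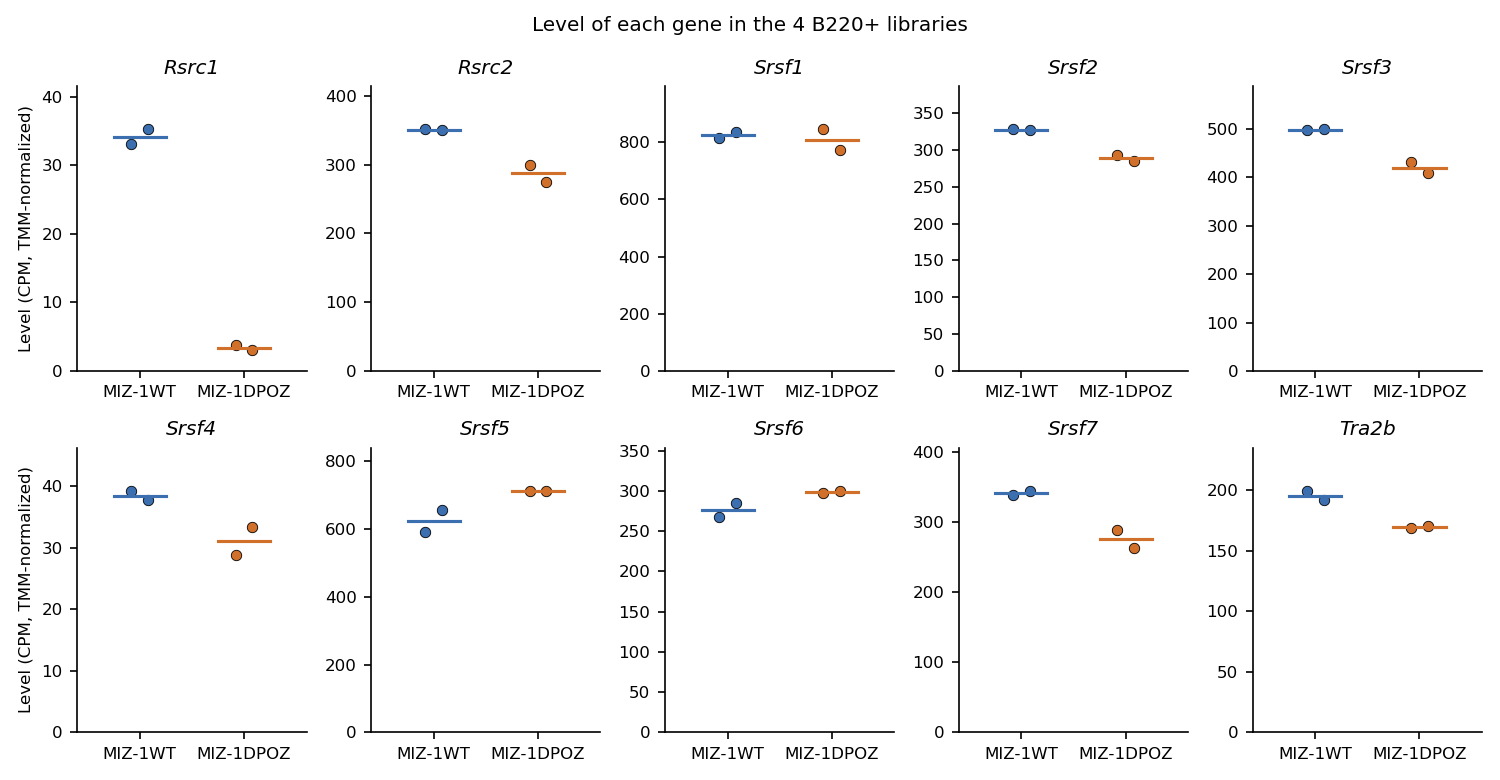
Level of the 10 genes in each library, in CPM after TMM normalization on axes that start at 0. Points are libraries and lines are means of 2; *Rsrc1* sat at 33.1 and 35.2 CPM in MIZ-1WT and at 3.76 and 3.03 CPM in MIZ-1DPOZ, while the other 9 genes differed by at most 19.4% of their MIZ-1WT mean.

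Among all 14554 tested genes, *Rsrc1* had the 12th lowest log2 fold change. Of the 11 genes below it, 7 lie on the Y chromosome. Of 5587 genes at or above its MIZ-1WT level, 5 had a lower fold change, namely the Y-linked *Ddx3y*, *Eif2s3y*, *Kdm5d* and *Uty*, and *Rprl3*, annotated as a ribozyme. *Rsrc1* lies on an autosome. In MIZ-1WT, 38.4% of the tested genes had a higher mean CPM.

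**Figure D2:**
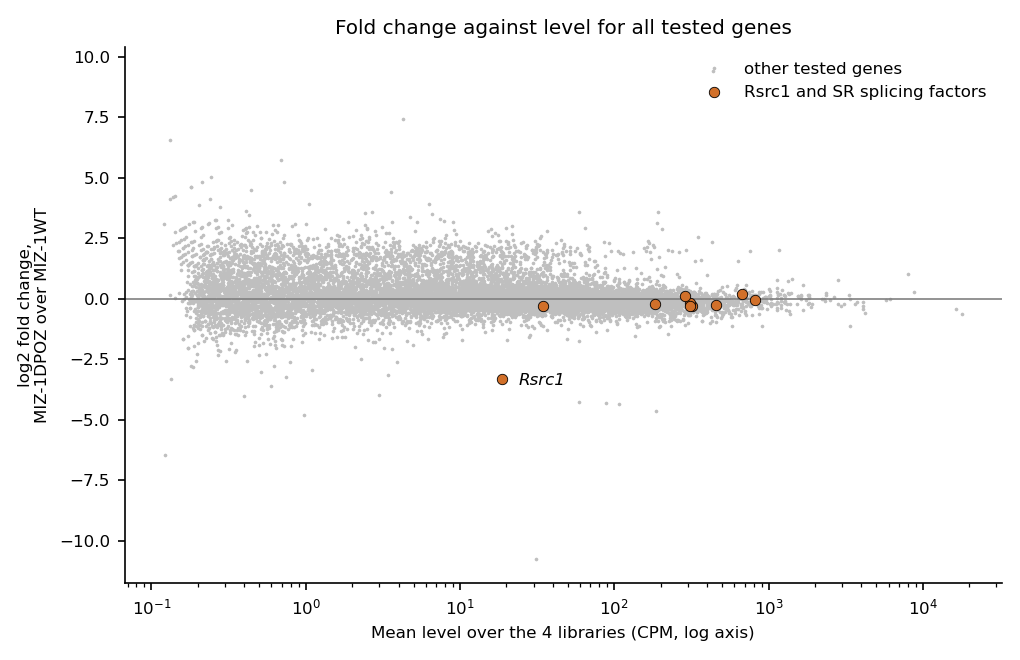
Log2 fold change of MIZ-1DPOZ over MIZ-1WT against the mean level in CPM (log axis) for all tested genes, in grey, with the 10 genes in orange. *Rsrc1* lies at -3.33, below the cloud of genes of its level, and the other 9 lie between -0.31 and 0.19.

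The tested genes nearest to *Rsrc1* did not fall with it. Within 500 kb on either side, 3 genes could be tested, all of them downstream of *Rsrc1*. Upstream, no gene within 500 kb could be tested, so that side is not covered. All 3 were higher in MIZ-1DPOZ by the quasi-likelihood test of edgeR, with p adjusted by Benjamini-Hochberg over all tested genes. *Gfm1*, a mitochondrial elongation factor 71.7 kb away, had counts of 2178 and 1999 in MIZ-1WT and 2858 and 2476 in MIZ-1DPOZ (log2 fold change 0.26, SE 0.06, edgeR adjusted p = 0.0212). *Mfsd1*, a lysosomal transporter, had counts of 4870 and 4675 against 6689 and 5784 (0.29, SE 0.05, edgeR adjusted p = 0.00867). *Lxn*, a carboxypeptidase inhibitor, had counts of 35 and 45 against 93 and 93 (1.12, SE 0.24, edgeR adjusted p = 0.0151). Of the 29 other genes tested within 5 Mb on either side, 4 were lower and 7 higher, and the lowest log2 fold change among them was -0.74, that of *Trim59*, a ubiquitin ligase gene.

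The start of *Rsrc1* overlaps *Shox2* on the opposite strand over 382 bases. *Shox2*, a homeobox gene, was counted 0, 0, 0 and 1 times in the 4 libraries, so reads of an overlapping gene add next to nothing to the *Rsrc1* counts. *Gm22295*, a small nuclear RNA gene inside it, was counted 0 times in every library.

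The protein-coding genes whose log2 CPM followed that of *Rsrc1* most closely over the 4 libraries, by the distance between values centred on each gene's mean, included *Tmem132e*, *Col5a3*, *Agbl1* and *Ngfr*. All 4 had far fewer counts. *Ngfr*, the p75 neurotrophin receptor, had the most of these, with 259 and 315 in MIZ-1WT and 49 and 52 in MIZ-1DPOZ. *Tmem132e* had 11 and 10 in MIZ-1WT and none in MIZ-1DPOZ, so it passed the count filter through MIZ-1WT alone. Its log2 fold change was -6.46 beside -3.33 for *Rsrc1*, and the distance used log2 CPM with a prior count of 2. *Rsrc1* was chosen by the contrast between these same libraries, so the distance finds genes with a similar fall and is a description only.

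The promoter windows of *Rsrc1* are shown because it carried the greatest difference and MIZ-1 acts at promoters. RefSeq gives it 2 start sites (GRCm38.p6, plus strand, 250 bases before to 50 after each), at chr3:66985412-66985711 and chr3:66985717-66986016. Capitals mark the letters CCAAT (the CCAAT box) and GGGCGG (the GC box), searched on both strands, which are written as ATTGG and CCGCCC on the minus strand.
Rsrc1 first start site: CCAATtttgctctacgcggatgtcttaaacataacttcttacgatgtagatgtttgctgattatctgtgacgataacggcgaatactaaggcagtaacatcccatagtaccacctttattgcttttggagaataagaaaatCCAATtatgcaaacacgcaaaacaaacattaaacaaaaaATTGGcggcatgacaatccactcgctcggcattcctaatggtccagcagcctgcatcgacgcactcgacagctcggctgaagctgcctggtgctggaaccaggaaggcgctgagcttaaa
Rsrc1 second start site: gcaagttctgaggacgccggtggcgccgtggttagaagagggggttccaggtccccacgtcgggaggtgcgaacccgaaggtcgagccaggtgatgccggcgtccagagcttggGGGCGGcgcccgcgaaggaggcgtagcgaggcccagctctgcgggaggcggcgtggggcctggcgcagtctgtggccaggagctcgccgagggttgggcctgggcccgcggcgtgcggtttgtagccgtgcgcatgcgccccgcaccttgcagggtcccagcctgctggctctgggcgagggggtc

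The first window had 3 matches of CCAAT and a GC content of 44.7%, below the median of 52.7% over all 32851 promoters, and the second had 1 match of GGGCGG and a GC content of 72.7%. CCAAT was present in 37.4% and GGGCGG in 35.7% of all promoters. CACGTG, the E-box bound by MYC and MAX, and ATCGAT, letters described for MIZ-1 sites, had no match in either window or in the 11 windows of the other 9 genes. They were present in 7.15% and 0.925% of all promoters. The missing match says only that these letters are not in these windows. Both *Rsrc1* windows lie downstream of the GENCODE start of the gene at chr3:66981390, where no window was searched.

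Levels of the 10 genes per kb of exon spanned a wide range in MIZ-1WT. The length was that of the merged exons of all annotated transcripts, 12000 bases for *Rsrc1*. The transcripts in use can be shorter, so the order of the genes depends in part on the annotation. *Srsf5* was the highest at 156 ± 11.6 CPM per kb (SD, n = 2) and *Srsf1* followed at 145 ± 2.69, and these neighbours did not differ beyond their summed SDs. *Srsf2* at 111 ± 0.262, *Srsf7* at 96.2 ± 1.05, *Srsf3* at 63.1 ± 0.143, *Srsf6* at 57.4 ± 2.55 and *Rsrc2* at 43.0 ± 0.0122 came next. *Tra2b* at 21.2 ± 0.581, *Srsf4* at 10.8 ± 0.305 and *Rsrc1* at 2.85 ± 0.126 were the lowest. Every gap in this order below *Srsf1* was wider than the SDs of both neighbours. In MIZ-1DPOZ the order of *Srsf3* and *Srsf6* was exchanged, at 53.2 ± 2.09 and 62.1 ± 0.360 CPM per kb, and *Rsrc1* was at 0.283 ± 0.0431. The 9 relatives together took 0.336% and 0.345% of the raw counts on genes in MIZ-1WT and 0.345% and 0.327% in MIZ-1DPOZ, so the genotypes overlapped in that share.

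Of the 9 relatives, 6 were lower in MIZ-1DPOZ, none was higher, and the remaining 3 did not pass by the same edgeR test at a threshold of 0.05. At an unadjusted p under 0.05 the count was 6 lower and 1 higher, beside 3531 and 3778 of all 14554 tested genes. The Wald test of DESeq2, with adjusted p, also gave 6 lower and 1 higher, beside 16.6% and 18.3% of all tested genes. Over all tested genes, 18.9% were lower and 21.1% were higher by edgeR's adjusted p. The differences were small, between -0.31 and 0.19 on the log2 scale, with a median of -0.20 beside a median of -0.01 over all tested genes. Among the 5547 genes at or above the lowest mean level of the 9, 1799 or 32.4% were lower and 885 were higher, with a median of -0.08. Scaling libraries to 9 pan-B genes instead shifts all genes alike and moved their median from -0.01 to 0.27, so that 4.81% of all genes were lower and 43.8% higher. Under it none of the 9 was lower, *Srsf1*, *Srsf5* and *Srsf6* were higher and the median of the 9 was 0.07. None of the 9 was called lower when MIZ-1WT replicate 1 or MIZ-1WT replicate 2 was left out, and over genes with a mean of 30 RPM or more 3 were lower and 2 higher, beside 21.2% and 24.2% of all genes tested there.

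**Figure D3:**
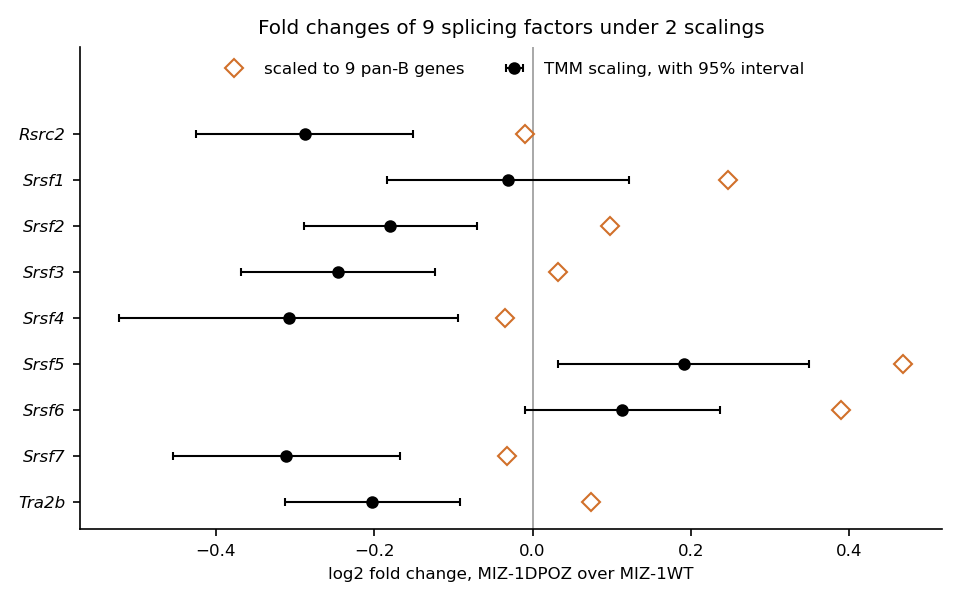
Log2 fold change of the 9 relatives of *Rsrc1*. Black points with bars are edgeR estimates after TMM scaling with 95% confidence intervals, and open diamonds are the estimates after scaling to 9 pan-B genes; 7 of 9 lay below zero with the first scaling, and 6 of 9 lay above zero with the second.

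*Srsf3* and *Srsf7*, small SR proteins that also link splicing to mRNA export, were both lower. *Srsf7* (chr17:80200080-80207307, minus strand) stood at 339 and 344 CPM in MIZ-1WT and at 288 and 263 CPM in MIZ-1DPOZ. *Srsf3* (chr17:29032628-29043373, plus strand) stood at 498 and 499 CPM against 432 and 409 CPM. In both genes the MIZ-1DPOZ libraries lay below the MIZ-1WT libraries. The log2 fold change was -0.31 for *Srsf7* (SE 0.06, edgeR adjusted p = 0.0105) and -0.25 for *Srsf3* (SE 0.05, edgeR adjusted p = 0.0133).

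*Rsrc2*, a further coiled-coil protein with an RS-like region (chr5:123728426-123749414, minus strand), was at 351.2 and 351.0 CPM in MIZ-1WT and at 299.7 and 275.4 CPM in MIZ-1DPOZ. It fell to 81.9% of its MIZ-1WT level (log2 fold change -0.29, SE 0.06, edgeR adjusted p = 0.0116), whereas *Rsrc1* stood at 9.94%.

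*Tra2b*, the transformer-2 homolog that binds purine-rich exonic enhancers (chr16:22244549-22266005, minus strand), was at 199 and 192 CPM in MIZ-1WT and at 169 and 171 CPM in MIZ-1DPOZ. The groups did not overlap, and the log2 fold change was -0.20 (SE 0.04, edgeR adjusted p = 0.0177). *Srsf2*, also known as SC35 and found in nuclear speckles (chr11:116849901-116853094, minus strand), was at 328 and 327 CPM against 293 and 284 CPM. Its log2 fold change was -0.18 (SE 0.04, edgeR adjusted p = 0.0241), which did not pass without MIZ-1DPOZ replicate 2 (adjusted p = 0.0753). The opposite strand of *Srsf2* holds *Mettl23* over 3194 bases and *Mfsd11* over 655 bases, and the strand setting of the counting was not given in the sources used here. *Mettl23*, a methyltransferase gene, was lower too, with counts of 4041 and 3880 in MIZ-1WT and 3577 and 3325 in MIZ-1DPOZ (-0.29, edgeR adjusted p = 0.00614), while *Mfsd11* had counts of 983 and 899 against 1010 and 933.

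*Srsf4*, whose coding sequence of 491 codons was the longest of the 10 (chr4:131873617-131901706, plus strand), had the lowest level of the 9, with 39.2 and 37.7 CPM in MIZ-1WT and 28.7 and 33.4 CPM in MIZ-1DPOZ. The MIZ-1DPOZ libraries differed by 0.21 from each other on the log2 scale, the widest gap between replicates among the 9. The log2 fold change was -0.31 (SE 0.09, edgeR adjusted p = 0.0364), and without MIZ-1DPOZ replicate 1 it was -0.20 and did not pass (adjusted p = 0.115). *Gm12992*, a transcript on the opposite strand of *Srsf4*, was counted 56 and 45 times in MIZ-1WT and 27 and 36 times in MIZ-1DPOZ.

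*Srsf1*, the founding SR protein ASF/SF2 (chr11:88047373-88053755, plus strand), was at 815 and 836 CPM in MIZ-1WT and at 844 and 771 CPM in MIZ-1DPOZ. Its groups overlapped, and the 95% confidence interval of the log2 fold change of -0.03 reached from -0.18 to 0.12 (edgeR adjusted p = 0.714). It was the only one of the 9 whose groups overlapped in CPM.

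*Srsf5* and *Srsf6*, close relatives of *Srsf4*, had the opposite sign to the 6 that were lower. *Srsf5* (chr12:80945504-80950507, plus strand) was at 591 and 657 CPM in MIZ-1WT and at 712.2 CPM in both MIZ-1DPOZ libraries, with a log2 fold change of 0.19 (95% confidence interval 0.03 to 0.35, edgeR adjusted p = 0.0602). *Srsf6* (chr2:162931528-162937121, plus strand) was at 268 and 285 CPM against 298 and 300 CPM, with a log2 fold change of 0.11 (95% confidence interval -0.01 to 0.24, edgeR adjusted p = 0.122). Neither passed the threshold, although both MIZ-1DPOZ libraries lay above both MIZ-1WT libraries in each gene. With the Wald test of DESeq2 *Srsf5* was higher at an adjusted p of 0.025, and without MIZ-1WT replicate 1 the log2 fold changes were 0.12 for *Srsf5* and 0.07 for *Srsf6*.

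Among the 9 relatives, 6 had MIZ-1DPOZ libraries below both MIZ-1WT libraries, 2 had them above, and 1 overlapped. Over all tested genes, 37.6% had non-overlapping groups with MIZ-1DPOZ below and 37.2% with MIZ-1DPOZ above. None of the 9 reached the study's own limit of 0.6 on the log2 scale in either direction, at an unadjusted p under 0.05, which 20.3% of the tested genes passed. *Rsrc1* was past that limit, by the contrast for which it was chosen.

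The balance among the 9 within a library does not depend on how libraries were scaled to each other. Each level was therefore set against the mean log2 CPM of the 9 in the same library, as a description with no test. *Srsf5* stood at 0.98 and 1.11 above that mean in MIZ-1WT and at 1.36 and 1.39 in MIZ-1DPOZ, and its share of the summed CPM of the 9 was 17.3% and 18.6% against 21.2% and 22.1%. *Srsf6* stood at -0.16 and -0.09 in MIZ-1WT and at 0.10 and 0.15 in MIZ-1DPOZ. *Rsrc2* went the other way, from 0.23 and 0.21 to 0.12 and 0.02, and *Srsf7* from 0.177 and 0.179 to 0.06 and -0.05. With *Srsf1* at 1.44 and 1.46 against 1.61 and 1.51, the genes *Srsf1*, *Srsf5* and *Srsf6* lay higher within the set in MIZ-1DPOZ and the other 6 lay lower. For *Tra2b* the nearest libraries of the genotypes stood at -0.666 and -0.667, almost the same value, and for *Srsf4* at -3.01 and -3.02. Since levels are set against the mean of the 9, some genes must lie higher where others lie lower. *Rsrc1* stood at -3.18 and -3.11 against the mean of the 9 in MIZ-1WT and at -6.18 and -6.46 in MIZ-1DPOZ.

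**Figure D4:**
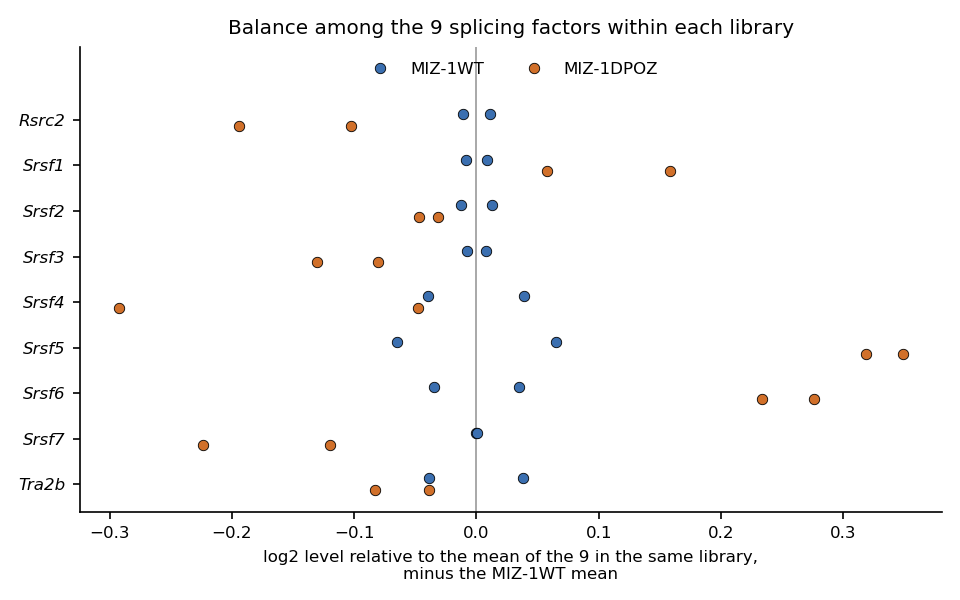
Log2 level of each of the 9 relatives against the mean of the 9 in the same library, shown as the difference from the MIZ-1WT mean. Each point is a library. *Srsf1*, *Srsf5* and *Srsf6* lay to the right in both MIZ-1DPOZ libraries and the other 6 to the left, with *Tra2b* and *Srsf4* close to the MIZ-1WT range.

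The remaining genes of the pathway were read from 6 lists of 153 genes, of which 152 could be tested. By edgeR's quasi-likelihood test 44 were lower and 13 were higher in MIZ-1DPOZ, and the median log2 fold change was -0.11. These were shares of 28.9% and 8.55%, beside the 18.9% and 21.1% of all genes. Among the 5547 genes at or above the lowest mean level of the 9 relatives, 1799 or 32.4% were lower and 885 were higher, with a median of -0.08. The share of lower genes in the lists was thus no greater than among these more highly expressed genes. Some list genes, such as *Hnrnpll*, lay below that level, and the part of expression level in the list results was not tested. With scaling to 9 pan-B genes, under which 4.81% of all genes were lower and 43.8% higher, no list had more than 2 genes lower, and from 3 to 27 genes a list were higher. The range of the list genes was narrow, from -0.56 to 0.44 apart from *Hnrnpll*, the only one of the 152 past 0.6.

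Of the other SR and SR-related factors, 7 of 8 were tested, 2 were lower, 1 was higher and the median was -0.09. *Srsf10*, an SR protein that acts as a repressor when dephosphorylated, fell from 209 ± 0.00547 to 180 ± 3.21 CPM (-0.21, SE 0.04, edgeR adjusted p = 0.0129). *Srrm1*, a coactivator that bridges SR proteins, fell from 89.1 ± 8.37 to 67.7 ± 5.08 CPM (-0.40, SE 0.09, edgeR adjusted p = 0.0166). *Srsf9* rose from 37.1 ± 0.330 to 42.4 ± 0.0609 CPM (0.19, SE 0.05, edgeR adjusted p = 0.0383). *Tra2a*, the paralog of *Tra2b*, had a log2 fold change of -0.04 (edgeR adjusted p = 0.618).

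Of 11 genes for kinases, a phosphatase and the import receptor of SR proteins, 6 were lower, none was higher (0 also at an unadjusted p under 0.05 and by DESeq2) and the median was -0.17. *Srpk3*, an SR protein kinase best known from muscle, fell from 209 ± 1.30 to 142 ± 3.68 CPM (-0.56, SE 0.04, edgeR adjusted p = 0.00118), the greatest difference of any tested pathway gene in that direction. *Clk2* fell from 111 ± 2.66 to 77.1 ± 2.58 CPM (-0.53, SE 0.05, edgeR adjusted p = 0.00178) and *Clk3* from 65.4 ± 3.35 to 53.8 ± 0.224 CPM (-0.28, SE 0.06, edgeR adjusted p = 0.0143). *Clk1* at -0.11 and *Clk4* at -0.09 did not pass, nor did *Srpk1* at 0.01 or *Tnpo3*, the import receptor of SR proteins, at -0.13. With scaling to 9 pan-B genes, 2 of the 11 were lower and 3 were higher, beside 4.81% and 43.8% of all genes.

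Of 33 other RS-domain and nuclear speckle genes, 13 were lower and 3 higher, with a median of -0.13. *Scaf1*, which binds the tail of RNA polymerase II, fell from 47.6 ± 2.37 to 33.0 ± 0.697 CPM (-0.53, edgeR adjusted p = 0.00292). *Nktr*, a cyclophilin with an RS region, fell from 256 ± 8.82 to 183 ± 12.5 CPM (-0.49, edgeR adjusted p = 0.00339), and *Ccnl2*, a cyclin of the speckles, from 452 ± 5.96 to 357 ± 9.46 CPM (-0.34, edgeR adjusted p = 0.00432). *U2af1*, the U2AF subunit that reads the 3′ splice site, rose from 25.6 ± 0.804 to 30.3 ± 1.17 CPM (0.25, edgeR adjusted p = 0.0353), and *Rnps1* and *Arglu1* rose by 0.20 and 0.18.

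Of 48 core spliceosome genes, 6 were lower and 6 were higher, with a median of -0.08. Each was a share of 12.5%, beside 18.9% lower and 21.1% higher over all tested genes. At an unadjusted p under 0.05, 15 were lower and 6 higher, beside 3531 and 3778 of all 14554 tested genes. Those that rose included the Sm ring genes *Snrpf* (25.3 ± 0.202 to 34.4 ± 0.639 CPM, 0.44, edgeR adjusted p = 0.00442), *Snrpd1* (0.39, edgeR adjusted p = 0.00735) and *Snrpb* (0.25, edgeR adjusted p = 0.0121). Those that fell included *Prpf3* of the tri-snRNP (41.0 ± 1.85 to 29.7 ± 1.53 CPM, -0.47, edgeR adjusted p = 0.00549), the branch point binding *Sf1* (-0.28, edgeR adjusted p = 0.00804) and the helicase *Dhx16* (-0.33, edgeR adjusted p = 0.0118).

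Of 34 hnRNP and other splicing regulators, which often oppose SR proteins, 11 were lower and 3 higher, with a median of -0.10. *Hnrnpll*, which directs exon skipping of CD45 mRNA in lymphocytes and plasma cells, rose from 1.79 ± 0.349 to 4.18 ± 0.441 CPM (1.22, SE 0.21, edgeR adjusted p = 0.00801), and its counts were 89 and 65 in MIZ-1WT and 214 and 170 in MIZ-1DPOZ. Plasma cell markers moved with it, from 734 to 1059 CPM summed in MIZ-1WT to 2311 to 2477 CPM in MIZ-1DPOZ, and their part in the result was not tested. *Hnrnpab* and *Hnrnpa1* both rose by 0.29 (edgeR adjusted p = 0.00528 and 0.00983). *Hnrnpd* fell by 0.33 (edgeR adjusted p = 0.00877), *Tardbp* by 0.26 (edgeR adjusted p = 0.0105) and *Hnrnpul2* by 0.28 (edgeR adjusted p = 0.0116).

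Nonsense-mediated decay and the exon junction complex, through which many SR genes limit their own transcripts, had 6 of 19 genes lower, none higher (1 at an unadjusted p under 0.05, 0 by DESeq2) and a median of -0.17. *Smg6*, the endonuclease of the pathway, fell from 94.4 ± 0.855 to 74.8 ± 4.11 CPM (-0.34, edgeR adjusted p = 0.00782). *Smg5* fell by 0.24 (edgeR adjusted p = 0.0101) and *Upf2* by 0.27 (edgeR adjusted p = 0.0111). *Upf1*, the central helicase, had a log2 fold change of -0.06 (edgeR adjusted p = 0.376). With scaling to 9 pan-B genes none of the 19 was lower and 8 were higher, beside 43.8% of all genes.

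**Figure D5:**
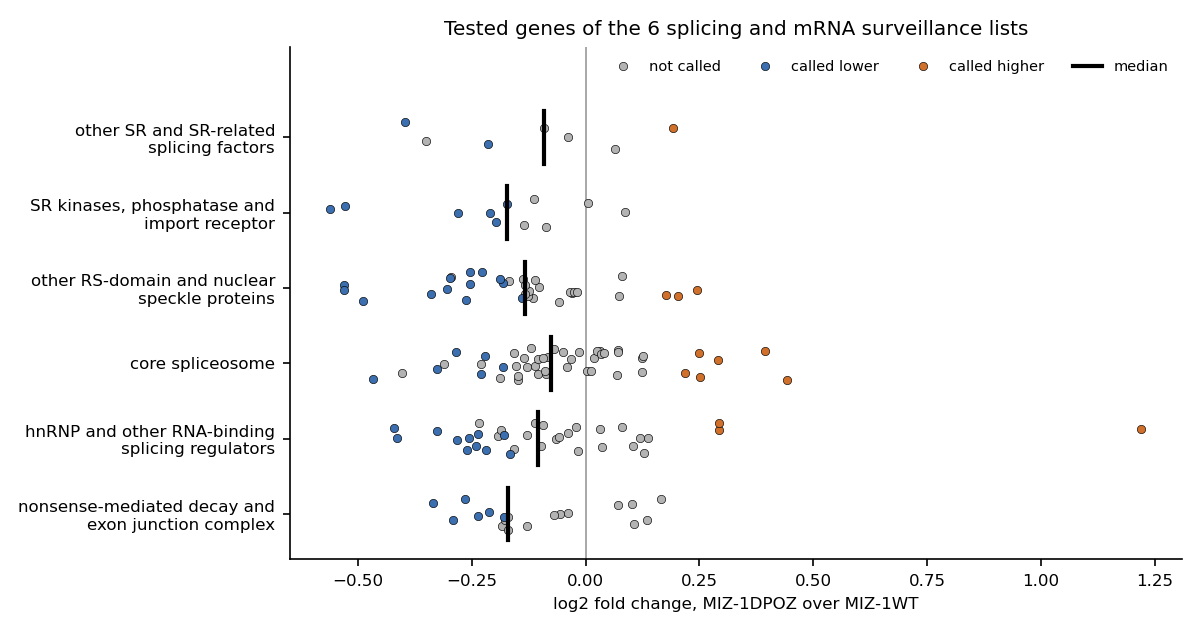
Log2 fold change of each tested gene of the 6 lists, with medians as vertical bars and colours for genes that passed edgeR's test after TMM scaling. Medians lay between -0.17 and -0.08, 44 genes were lower and 13 higher, and *Hnrnpll* at 1.22 stands apart; with scaling to 9 pan-B genes, which shifts all genes up alike, no list had more than 2 genes lower.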

How the data were processed

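The authors trimmed paired-end reads with Trimmomatic, mapped them to mm10 (GRCm38) with TopHat2 (version 2.1.0 in the submitters' processing notes) and counted them with HTSeq. They deposited raw counts per Ensembl gene, neither normalized nor pooled. The strand setting and the Ensembl release were not given in the sources used here, and the kit was stranded. Symbols and positions came from GENCODE M21 and matched 40340 of 41214 genes. Summary lines of the table stayed out of library sizes; reads outside genes made up 21.1% to 27.2%, ambiguous reads 0.281% to 0.302% and reads without a unique alignment 42.8% to 44.1%.

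The 14554 genes with 10 or more counts in 2 or more libraries were compared in edgeR 4.0.16 (R 4.3.3) with TMM factors (0.977 to 1.03) by its quasi-likelihood test, with p adjusted by Benjamini-Hochberg and a threshold of 0.05; the common dispersion was 0.00848. Standard errors are the log2 fold change divided by the root of the F statistic. Log2 CPM used a prior count of 2. Replicates of a genotype correlated at 0.994 and 0.993 in log2 CPM. The procedure was tested on simulated counts. Alternatives were DESeq2 size factors, the Wald test of DESeq2 1.42.0, other filters, removal of 257 immunoglobulin segments, a replicate block and leaving out each library. Scaling to 9 pan-B genes, *Cd79a* left out, was chosen after the data were seen.

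The members and lists were chosen with earlier results of these data known. Named genes were the 10 members, up to 3 genes per list and direction with the smallest p, tested genes within 500 kb of *Rsrc1*, genes overlapping a member and the 5 most like *Rsrc1*, of which 1 is not reported here; *Tra2a*, *Clk1*, *Clk4*, *Srpk1*, *Tnpo3* and *Upf1* were added after their values were seen. With 2 libraries per genotype, p-values set each difference against a spread estimated from these libraries, in part over other genes.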

Additional observations from a re-analysis of the deposited data

How the results depend on the processing

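*Rsrc1* was chosen for its fall in these same libraries, so its values under the alternatives are a description and no support for that fall. Its log2 fold change was -3.05 when scaled to 9 pan-B genes and from -3.48 to -3.16 when 1 library was left out. It was below zero under every alternative that included the gene. Its mean was under 30 RPM, so the stricter filter left it out.

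For the 9 relatives the calls depended on the scaling, on the filter and on single MIZ-1WT libraries. Scaling to 9 pan-B genes, chosen after the data were seen, gave 0 of 9 lower and 3 higher with a median of 0.0741, and turned *Srsf1* to 0.25, *Srsf2* to 0.10, *Srsf3* to 0.0319 and *Tra2b* to 0.0741; over all genes 700 were lower and 6372 higher, against 2746 and 3076. In the lists it left 0 lower and 3 higher of the other SR factors, 2 and 3 of the SR kinases, 2 and 11 of the speckle genes, 0 and 27 of the core spliceosome, 0 and 15 of the hnRNP genes and 0 and 8 of the decay genes. With a mean of 30 RPM or more required, which tested 6052 genes, 3 of the 9 were lower (*Rsrc2*, *Srsf3*, *Srsf7*) and 2 higher (*Srsf5*, *Srsf6*), the median was -0.13 and *Srsf1* was at 0.0449; 3 SR kinases, 6 speckle genes and 3 decay genes were lower, and 6 hnRNP and 3 decay genes were higher. The cause was not tested.

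Leaving out 1 library gave 0 to 5 of the 9 lower, 0 without either MIZ-1WT replicate, with medians from -0.23 to -0.18, and *Srsf1* from -0.0892 to 0.0523, above zero without MIZ-1DPOZ replicate 2. Lower calls ranged from 0 to 3 for the other SR factors, 2 to 6 for the SR kinases, 3 to 11 for the speckle genes, 1 to 8 for the core spliceosome, 0 to 11 for the hnRNP genes and 0 to 5 for the decay genes. Higher calls were 0 throughout for the other SR factors and ranged from 0 to 3 for the speckle genes, 1 to 7 for the core spliceosome and 1 to 6 for the hnRNP genes. In these fits the lone library is assumed to vary like the other genotype, and calls over all genes dropped too, to 848 and 1115 lower without MIZ-1WT replicate 1 and replicate 2.

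DESeq2's Wald test and no filter on counts each gave 1 member higher (*Srsf5*), 0 other SR factors higher and 1 speckle gene higher. Over all genes, 18.3% were higher by the Wald test and 14.6% without a filter. Removing immunoglobulin segments gave 1 decay gene higher. The replicate numbers pair only 2 libraries each, and deviations of same-numbered libraries correlated at -0.07. With 2 libraries per genotype this is a single correlation over genes, which cannot show whether same-numbered libraries were prepared together. With the replicate block, 4 of the 9 were lower (*Rsrc2*, *Srsf3*, *Srsf7*, *Tra2b*), 8 speckle genes were lower, and 0 other SR factors and 0 speckle genes were higher. Over all genes, 14.4% were lower and 18.1% higher in that fit. DESeq2 size factors changed no call among the 10.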
